A study of Mus musculus with 8 samples.

Results

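Genes of transforming growth factor beta (TGF-beta), bone morphogenetic protein (BMP), activin and Smad signalling were compared between whole hearts with a coronary ligation and sham-operated hearts. They were chosen by gene symbol: every array gene named Tgfb, Smad, Bmp, Bmpr, Acvr, Inhb, Gdf or Ltbp with its number or suffix, and Fst, Fstl1, Fstl3, Grem1, Nog, Skil and Tgif1. This gave 56 of 13661 named genes, measured by 73 probes. The infarcted group was 4 C57Bl/6 mice aged 8 to 10 weeks with permanent ligation of a descending left coronary branch, a model of heart failure after ischaemia. The sham control group was 4 mice of the same strain and age in which the suture was passed but left untied. Each heart had its own array of 70-mer oligonucleotides, with 30 µg of heart RNA labelled red and, labelled green, reference RNA pooled from several mouse tissues. How long after ligation the hearts were taken is not given in the sources used here.

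TGF-beta family ligands are secreted as dimers and bind pairs of type I and type II serine-threonine kinase receptors. The activated type I receptor phosphorylates receptor Smads, which join Smad4 and enter the nucleus. TGF-beta and activins act mainly through Smad2 and Smad3, and BMPs through Smad1, Smad5 and Smad9. In the injured heart TGF-beta is best known for turning fibroblasts into matrix-producing myofibroblasts. Latent TGF-beta binding proteins hold the inactive ligand in the matrix, and follistatins, noggin and gremlin bind ligands outside the cell.

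Of 33600 spots, sham control arrays had values for 19704 to 24819 and infarcted arrays for 21916 to 23655. Each value is the log2 of a spot's signal divided by the median signal of its block of 700 spots on that array, so 0 marks the block's median. The values hold 1 dye channel only, taken here to be that of the heart RNA, but the files do not say which. Heart muscle genes mostly had high signals. Of the 5 cardiomyocyte markers with 8 values, Actn2 and Ttn, of the sarcomere, ran from 5.19 to 6.88 and from 3.67 to 3.99. Myh7, Ryr2 and Nppa ran more widely, from 0.71 to 5.35, from 1.89 to 4.29 and from 2.40 to 5.93. The mean of the 5 was 4.21 ± 0.74 on sham control arrays and 4.71 ± 0.11 on infarcted arrays (SD, n = 4 each). Infarcted minus sham control, Myh7 differed by 1.79, Nppa by 0.88, Ttn by 0.12, Ryr2 by 0.02 and Actn2 by -0.31. None of the 5 passed the test. Of 17 cardiomyocyte markers, 8 could be tested, since the brightest often lacked values, and Tcap had none. The other tested ones, with some values missing, were Mybpc3 (-1.11), Ckm (-0.69) and Pln (0.27), and none passed. Ckm ran from 6.28 to 7.01 on sham control arrays with a value and from 5.75 to 6.25 on infarcted arrays. Over the 8 tested markers 5 were above 0, with a median of 0.07, or 0.64 after quantile normalization. High signals were also found for genes that heart muscle does not use and other tissues do. The sperm chromatin genes Prm1, Prm2 and Tnp1 ran from 3.57 to 5.61 on the sham control arrays and from 1.77 to 4.12 on the infarcted arrays. In the difference, infarcted minus sham control, 1 of 6 testis genes was above 0 and 2 passed the test, Tex101 higher (4.85) and Prm2 lower. The difference was below 0 for all 4 tested lung and all 6 tested stomach genes, with medians of -0.85 and -0.55, and above 0 for 2 of 5 brain genes, and none of these passed. Of all tested features, 42.5% had a difference above 0. The liver gene Ttr ran from 2.59 to 4.35 and the airway gene Scgb1a1 from 2.91 to 5.30 over all 8 arrays. Signal from heart RNA and signal from reference RNA therefore cannot be told apart in these values, and every level below is a signal on sham control or infarcted arrays.

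**Figure D1:**
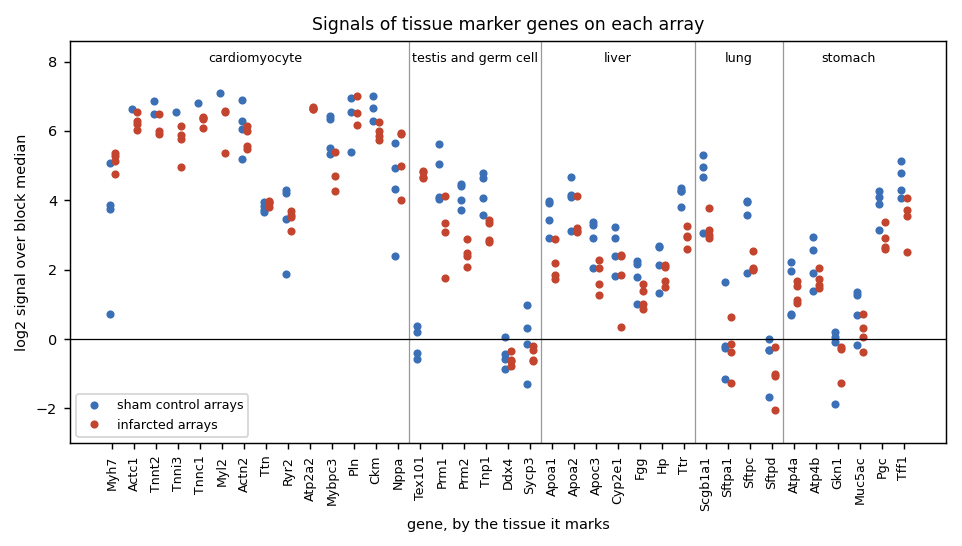
Log2 signal over the block median (vertical axis) of marker genes with values on at least 4 arrays, by the tissue they mark, with 1 point per array (blue, 4 sham control; red, 4 infarcted). Several testis, liver, lung and stomach genes lie well above 0 on every array, as Prm2 does at 3.72 to 4.46 on sham control arrays.

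None of the 35 family genes that could be tested passed the threshold (limma, Benjamini-Hochberg adjusted p under 0.05 over all 18044 features), where 0.549% of all features passed, 0.0554% higher and 0.493% lower. At an unadjusted p under 0.05 there were 3 family genes, 1 higher and 2 lower on infarcted arrays, or 8.57% against 12.3% of all features (3.46% higher and 8.82% lower). The arrays of the groups did not overlap for 3 family genes, all lower, again 8.57% against 8.89% of all features (2.62% higher and 6.27% lower). These shares were close to those of the array as a whole. The family's median difference, infarcted minus sham control, was -0.04 on the log2 scale, and that of all features was -0.08. Of the family genes 14 were above 0 and 21 below, or 40% above 0 against 42.5% of all features. After quantile normalization the features at an unadjusted p under 0.05 were 835 higher and 934 lower, where the main setting had 624 and 1592. The 3 genes of smallest p in the main setting were Fstl3 (-1.23), the receptor Bmpr2 (0.91) and Ltbp4 (-0.86). In whole hearts, fewer cells of a type and less RNA per cell cannot be told apart.

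The precision differed between genes. The 95% interval of the difference reached 0.64 to either side for the median family gene, and it lay within a 2-fold change in both directions for 21 of the 35 genes. For the other 14 a change of 2-fold or more in at least 1 direction lay inside the interval. Over all tested features the median interval reached 0.68 to either side, and 48.8% of intervals lay within a 2-fold change in both directions. The spread between arrays was larger among the sham control arrays (median SD 0.40) than among the infarcted arrays (0.33), and all features gave 0.46 and 0.33. Of 28 family genes with a value on all 8 arrays, 6 had their lowest value on sham control replicate 2, 6 on sham control replicate 4 and 7 on infarcted replicate 4. Over all features with 8 values, the shares lowest on these arrays were 20.5%, 24.4% and 12.7%.

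**Figure D2:**
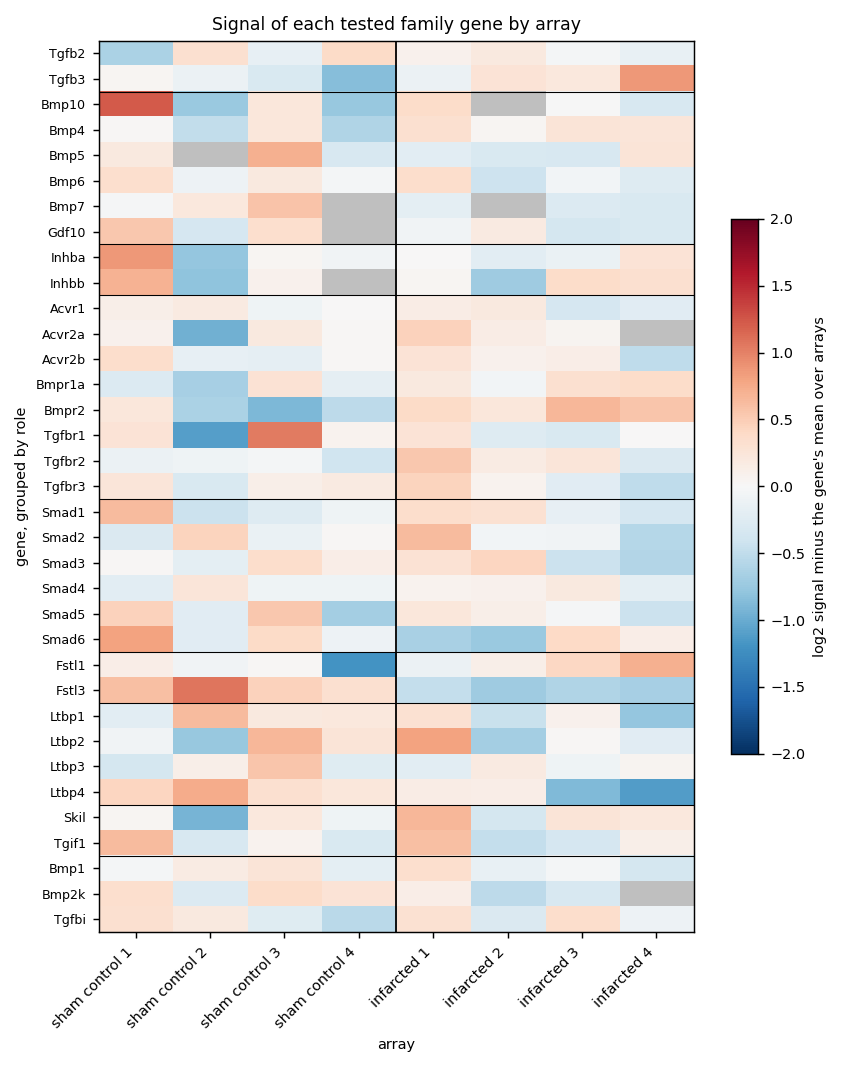
Log2 signal of each of the 35 tested family genes (rows, grouped by role) minus its mean over the arrays with a value, on the 4 sham control and 4 infarcted arrays (columns); grey marks a missing value. Fstl3 is above its mean on all sham control arrays and below it on all infarcted arrays.

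**Figure D3:**
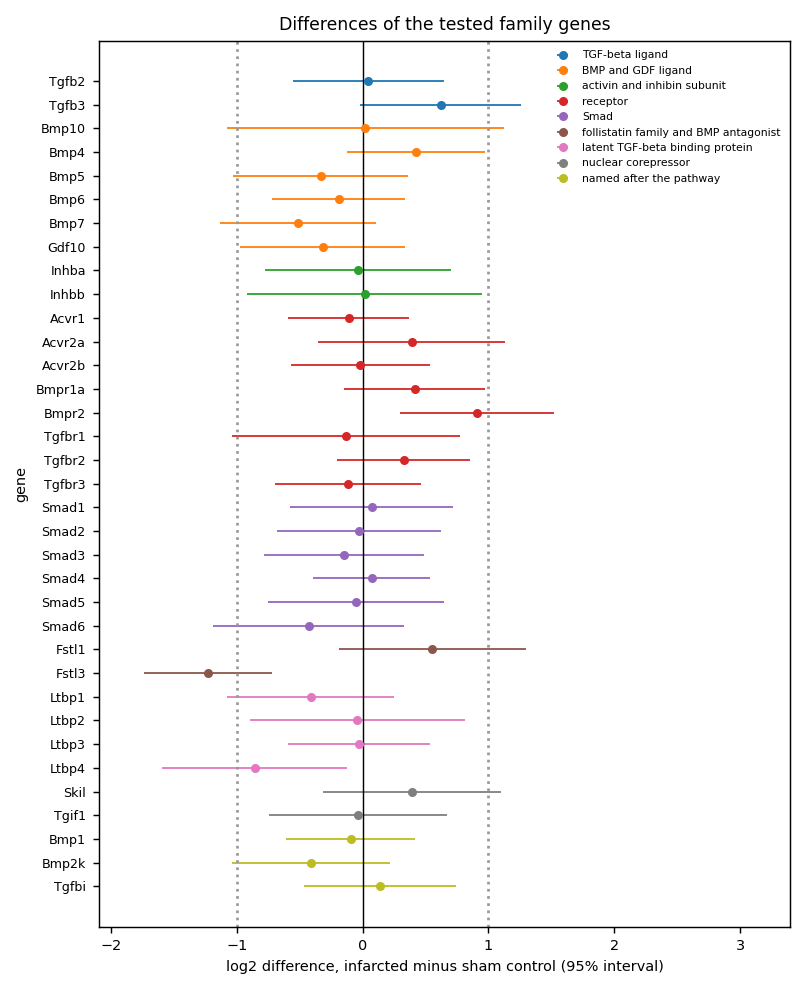
Difference in log2 signal, infarcted minus sham control, of the 35 tested family genes with its 95% interval, coloured by role; dotted lines mark 2-fold. The intervals of Fstl3, Bmpr2 and Ltbp4 leave out 0, and 21 of the 35 lie between the dotted lines.

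Among the ligands named TGF-beta, Tgfb3 had signals of 0.71, 0.55, 0.36 and -0.19 on the sham control arrays and 0.54, 0.95, 0.88 and 1.53 on the infarcted arrays. The groups overlapped through infarcted replicate 1. The difference was 0.62 ± 0.29 (SE, 95% interval -0.02 to 1.26, limma adjusted p = 0.428). Tgfb2, an isoform known from heart development, had -1.28, -0.33, -0.81 and -0.26 on sham control arrays and -0.56, -0.45, -0.69 and -0.80 on infarcted arrays. All its infarcted values lay within the sham range, and its interval of -0.55 to 0.64 left out a 2-fold change. Tgfb1, the isoform most studied in scar formation, could not be tested, because infarcted replicates 3 and 4 had no value. Its other signals were 0.41, 1.44, 0.48 and 0.58 on sham control arrays and 0.77 and 0.74 on infarcted arrays.

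Of 17 genes of BMP and growth differentiation factor (GDF) ligands, 6 could be tested, 2 above 0 and 4 below, and their median difference was -0.25. Bmp4, a ligand that acts through the receptor Smads of the BMP branch, had 0.59, 0.07, 0.79 and -0.04 on sham control arrays and 0.88, 0.61, 0.82 and 0.80 on infarcted arrays. The infarcted values lay close together, and of the sham values only that of replicate 3 lay among them. Its difference was 0.42 ± 0.25 (SE, adjusted p = 0.539), and its 2 probes gave 0.70 and 0.15. Bmp7, often described as opposing TGF-beta in fibrosis, had -2.55, -2.31 and -1.95 on 3 sham control arrays and -2.72, -2.80 and -2.83 on 3 infarcted arrays. Its groups did not overlap, with 1 array of each group missing and signals far below the block median, and the difference was -0.51 ± 0.27 (adjusted p = 0.499). Bmp10, a ligand made by heart muscle, had 0.15, -1.83, -0.86 and -1.84 on sham control arrays and -0.72, -1.10 and -1.40 on 3 infarcted arrays. The wide sham range left an interval of -1.08 to 1.12 around a difference of 0.02, so a 2-fold change either way was not excluded for Bmp10. Bmp5, Bmp6 and Gdf10 had differences of -0.33, -0.19 and -0.32.

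Bmp8b had a value of -1.89 on sham control replicate 3, values of 4.53 and 4.40 on infarcted replicates 1 and 3, and none on the other 5 arrays. The signals behind them were 148, 5432 and 11866 scanner units, and 11866 was the highest signal of any family probe. Bmp8b is a close paralog of Bmp8a, so cross-hybridisation between them was not tested. The Bmp8a probe had 1 value, -3.10 on sham control replicate 1, and neither gene was tested. Gdf11 had values on 3 infarcted arrays, -2.03, -2.52 and -2.28, and on no sham control array, so no difference is given.

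The activin subunits did not pass. Inhba, which forms activin A, had -1.40, -3.05, -2.24 and -2.34 on sham control arrays and -2.27, -2.48, -2.41 and -2.01 on infarcted arrays, a difference of -0.04 ± 0.33 (SE). Inhbb, which forms activin B, had -0.09, -1.61 and -0.71 on 3 sham control arrays and -0.75, -1.50, -0.43 and -0.47 on infarcted arrays, a difference of 0.02 ± 0.41. For both genes the infarcted values lay inside the wider sham range. The intervals were -0.77 to 0.70 for Inhba and -0.92 to 0.95 for Inhbb.

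Of 11 receptor genes 8 could be tested, 4 above 0 and 4 below. The type II BMP receptor Bmpr2 had the largest difference among the tested ones. Its signals were 0.42, -0.44, -0.71 and -0.34 on sham control arrays and 0.57, 0.41, 0.86 and 0.74 on infarcted arrays. Only sham control replicate 1 reached the infarcted range, at its lower edge. The difference was 0.91 ± 0.27 (SE), or 1.88-fold, with an unadjusted p of 0.00787 and a limma adjusted p of 0.197. Its 2 probes gave similar differences, 0.95 and 0.87, and without sham control replicate 1 the gene's difference was 1.14 (adjusted p = 0.111). The 3744 features within 0.5 of its mean level had a median difference of 0.00.

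The type I BMP receptor Bmpr1a, with 0.43, 0.04, 0.99 and 0.52 on sham control arrays and 0.90, 0.65, 1.03 and 1.07 on infarcted arrays, differed by 0.41 ± 0.25 (SE, adjusted p = 0.561). Sham control replicate 3 lay inside its infarcted range, and without sham control replicate 2 the difference was 0.26. The gene had 3 probes, of which 1 had no value and the others gave 0.74 and 0.09. Tgfbr2, the ligand-binding type II receptor for TGF-beta, had 0.90, 0.92, 0.97 and 0.61 on sham control arrays and 1.55, 1.17, 1.25 and 0.72 on infarcted arrays, a difference of 0.33 ± 0.24. Infarcted replicate 4 fell within its sham range and the other 3 lay above it, and without infarcted replicate 1 the difference was 0.20. Its type I partner Tgfbr1 had -1.20, -2.58, -0.44 and -1.40 against -1.20, -1.73, -1.79 and -1.46, with an interval of -1.04 to 0.77. These Tgfbr1 values were gene means from different probes on different arrays. Of its 3 probes, 1 had values only on infarcted replicates 3 and 4. The value on sham control replicate 2 came from 1 probe alone. The probes did not agree, with -0.61 for 1 of them and 0.34 for the only one with a value on every array. The direction for Tgfbr1 is therefore not settled. Tgfbr3, or betaglycan, which presents TGF-beta to the type II receptor, had 0.90, 0.36, 0.77 and 0.84 against 1.10, 0.73, 0.43 and 0.15.

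The tested genes named as activin receptors gave overlapping groups too. Acvr1 had -0.84, -0.77, -1.05 and -0.94 on sham control arrays and -0.81, -0.76, -1.28 and -1.19 on infarcted arrays, and all 3 of its probes were slightly below 0 (-0.09, -0.12 and -0.13). Acvr2a had -0.96, -2.02, -0.86 and -1.03 against -0.59, -0.90 and -0.99 on 3 infarcted arrays, with sham control replicate 2 far below the rest. Its difference of 0.39 was 0.12 without that array. Acvr2b differed by -0.02 ± 0.25 (SE). Acvr1b had 2 sham values, 0.80 and 0.20, and 4 infarcted values from 0.50 to 1.06, and was not tested. Acvrl1, a receptor of endothelium, had 3 values in all, and 1 of them, 1.39 on sham control replicate 1, was far above the other sham value of -2.34.

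The Smads, which carry the signal to the nucleus, had differences from -0.43 to 0.07 over 6 tested genes. Smad4, the partner shared by both branches, had 1.24, 1.69, 1.36 and 1.37 on sham control arrays and 1.51, 1.53, 1.65 and 1.25 on infarcted arrays. Its difference of 0.07 ± 0.21 (SE) had an interval of -0.40 to 0.54. Smad2 had -0.66, 0.07, -0.52 and -0.35 against 0.25, -0.43, -0.44 and -0.95. Smad3 had -1.60, -1.82, -1.27 and -1.49 against -1.33, -1.19, -2.05 and -2.21, with infarcted replicate 2 above all of the sham values and replicates 3 and 4 below all of them. In the BMP branch, Smad1 had 1.14, 0.09, 0.25 and 0.43 against 0.87, 0.82, 0.35 and 0.18, and Smad5 had 1.25, 0.56, 1.32 and 0.10 against 1.00, 0.90, 0.76 and 0.35. For Smad1 to Smad5 the intervals lay within a 2-fold change in both directions. Smad6, an inhibitory Smad that dampens BMP signals, had 0.76, -0.27, 0.35 and -0.14 on sham control arrays and -0.70, -0.79, 0.35 and 0.10 on infarcted arrays. Infarcted replicates 1 and 2 were the lowest, and the difference of -0.43 ± 0.34 had an interval of -1.19 to 0.33. It was -0.24 without sham control replicate 1, -0.28 without infarcted replicate 1 and -0.25 without infarcted replicate 2. Smad9 had no value on any array, and Smad7 could not be read, since no probe carried its symbol alone.

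The clearest difference in the family was that of Fstl3, a follistatin-like glycoprotein that binds and neutralises activins and myostatin. Its signals were 2.38, 2.85, 2.23 and 2.09 on sham control arrays and 1.29, 1.07, 1.17 and 1.11 on infarcted arrays. Every infarcted array lay below every sham control array, and the infarcted values lay close together. The means were 2.39 ± 0.33 and 1.16 ± 0.10 (SD, n = 4 each), and the signal was 2.34-fold higher on sham control arrays. The difference of -1.23 ± 0.23 (SE, 95% interval -1.73 to -0.72) had an unadjusted p of 0.000324 and a limma adjusted p of 0.0517, just over the threshold. Fstl3 rested on 1 probe.

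The call for Fstl3 depended on the setting, while its direction did not. It passed in 6 of 18 alternative settings, among them without sham control replicate 4 (-1.33, adjusted p = 0.0179), and did not pass after quantile normalization (-1.11, adjusted p = 0.0942). The settings were not independent. The difference stayed at -1.23 with a value required on all 8 arrays, a trended and robust variance prior, or each probe on its own. Only the features fitted or the prior differed there (adjusted p = 0.0458, 0.0430 and 0.0458). Leaving out sham control replicates 2 and 4 was chosen after seeing the data, and no centring equalled the main setting. Over all settings the difference ran from -1.33 to -1.07 and the adjusted p from 0.0179 to 0.207. The 2283 features within 0.5 of its mean level had a median difference of -0.07. Among genes of other tissues, all 7 tested liver genes had a difference below 0, with a median of -0.84, and none passed. Of the testis genes Prm2 passed at -1.69 ± 0.26 (SE, limma adjusted p = 0.0314), while Tex101 passed in the other direction. The mean signal of the 7 liver genes ran from 2.29 to 3.45 on sham control arrays and from 1.70 to 2.62 on infarcted arrays. Their part in the Fstl3 difference was not tested.

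Fstl1, a secreted relative that does not share the activin-blocking role of follistatin and is made by stromal cells, had 3.22, 3.01, 3.11 and 1.88 on sham control arrays and 2.96, 3.19, 3.49 and 3.79 on infarcted arrays. Sham control replicate 4 was far below the other 7. The difference was 0.55 ± 0.33 (SE, adjusted p = 0.56), 0.84 after quantile normalization and 0.25 without sham control replicate 4. Follistatin itself, Fst, had -1.94, -2.84 and -2.05 on 3 sham control arrays and -2.64 and -2.93 on 2 infarcted arrays. Noggin, Nog, had -2.25, -2.48 and -1.88 against -0.56 and -3.15, and neither was tested. Grem1, or gremlin, had no value on any array.

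**Figure D4:**
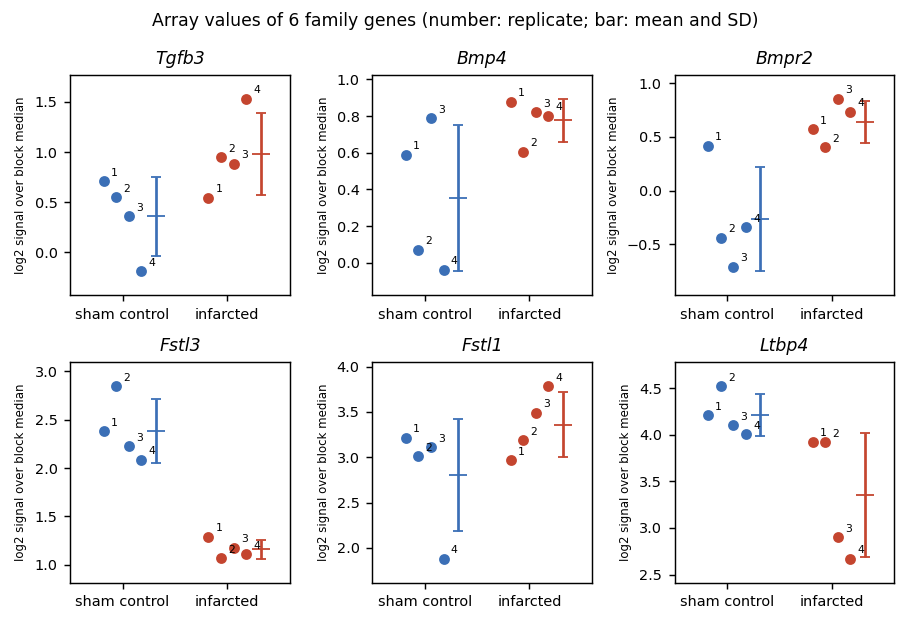
Log2 signal over the block median of Tgfb3, Bmp4, Bmpr2, Fstl3, Fstl1 and Ltbp4 on each array (points, numbered by replicate; blue, sham control; red, infarcted), with the mean and SD of 4 arrays beside each group; vertical axes differ. Fstl3 and Ltbp4 do not overlap between groups, and sham control replicate 4 is lowest for Fstl1 at 1.88.

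The sequence just before the start of a gene is where a Smad complex can bind, and the promoters of both leading genes are given for that reason, as RefSeq lists them in assembly GRCm38.p6. Each run is the 250 bases before the annotated start, 5′ to 3′ on the gene's strand, with the Smad-binding letters CAGAC, or GTCTG on the other strand, in capitals. The Fstl3 window is chr10:79777024-79777273 on the plus strand and the Bmpr2 window is chr1:59764029-59764278 on the plus strand.
Fstl3: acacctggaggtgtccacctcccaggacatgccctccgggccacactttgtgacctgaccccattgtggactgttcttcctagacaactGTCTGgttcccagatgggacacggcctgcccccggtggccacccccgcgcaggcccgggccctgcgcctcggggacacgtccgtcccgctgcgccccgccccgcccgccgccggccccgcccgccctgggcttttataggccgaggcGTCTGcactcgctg
Bmpr2: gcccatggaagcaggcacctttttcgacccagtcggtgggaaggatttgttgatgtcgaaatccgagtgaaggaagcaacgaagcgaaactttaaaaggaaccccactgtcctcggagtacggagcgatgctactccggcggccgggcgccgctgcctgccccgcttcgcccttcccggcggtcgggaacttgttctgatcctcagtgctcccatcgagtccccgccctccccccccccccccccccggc
The Fstl3 window held these letters 2 times and the Bmpr2 window 0 times. They stood in 42.2% of 32851 promoter windows of the same length and in 25 of 53 windows of 41 family genes found in the table (47.2%). The letters GGCGCC, a GC-rich element described in BMP target genes, stood in 9.59% of all windows, in 10 of the 53 family windows and 1 time in the Bmpr2 window, read alike on both strands. These matches describe the letters only.

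All 4 latent TGF-beta binding proteins had differences below 0 in the main setting, from -0.86 to -0.03, with a median of -0.23, but Ltbp3 turned to 0.06 after quantile normalization and 0.05 after loess. The 2 Ltbp3 probes gave 0.12 and -0.19, so its direction is not settled. Of all 18044 tested features 10371 had a difference below 0. Ltbp4, which is part of elastic fibres as well as of the latent complex, had 4.21, 4.52, 4.10 and 4.01 on sham control arrays and 3.92, 3.92, 2.90 and 2.67 on infarcted arrays. The groups did not overlap, but infarcted replicates 1 and 2 lay just below the lowest sham value and replicates 3 and 4 far below it. The difference was -0.86 ± 0.33 (SE, 95% interval -1.59 to -0.12, unadjusted p = 0.0263, limma adjusted p = 0.323). It was -0.37 after quantile normalization and -0.39 after loess against the mean array. The 782 features within 0.5 of its mean level had a median difference of -0.40, and the 99th percentile of all values ran from 5.60 to 6.29 on sham control arrays and from 4.98 to 5.22 on infarcted arrays. Without infarcted replicate 4 the Ltbp4 difference was -0.63.

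Ltbp1 and Ltbp3, which bind latent TGF-beta, differed by -0.41 ± 0.30 (SE) and -0.03 ± 0.25. Ltbp2, which does not bind latent TGF-beta, had gene means of -0.85, -1.54, -0.12 and -0.52 on sham control arrays and 0.02, -1.45, -0.75 and -1.01 on infarcted arrays. These means came from different probes on different arrays, since none of its 4 probes had a value on all 8. The probe with the most values gave 0.64, from 3 sham and 4 infarcted arrays, where the gene mean gave -0.04, so the direction for Ltbp2 is not settled.

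The corepressors that act on Smads in the nucleus showed no separation. Skil, or SnoN, had -1.77, -2.75, -1.60 and -1.90 on sham control arrays and -1.14, -2.16, -1.56 and -1.59 on infarcted arrays, a difference of 0.39 ± 0.32 (SE, adjusted p = 0.685), and Tgif1 differed by -0.04 ± 0.32. Without sham control replicate 2 the Skil difference was 0.14, and without infarcted replicate 1 it was 0.23. The 2 Skil probes gave 0.53 and 0.05, and only 1 of them had a value on sham control replicate 2. The Tgif1 gene means also came from different probes on different arrays, and 1 probe had a value only on infarcted replicate 1. Its only probe with a value on every array gave 0.08, where the gene mean gave -0.04. The direction for Tgif1 is therefore not settled. Tgfbi, a matrix protein induced by TGF-beta, had 1.14, 1.01, 0.58 and 0.27 against 1.13, 0.53, 1.17 and 0.71, with an interval of -0.47 to 0.74. Bmp1 is a procollagen protease and Bmp2k a kinase, and neither is a ligand. They differed by -0.10 ± 0.23 and -0.41 ± 0.28.

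Other genes of the pathway, from a list of receptors' helpers, extracellular regulators, Smad modifiers and target genes outside these families, were read from the same fit. Of 47 on the array 38 could be tested. None passed (limma adjusted p under 0.05), and 2 had an unadjusted p under 0.05 (5.26% against 12.3% of all features). The groups did not overlap for 3 (Hipk2, Map3k7 and Eng, 7.89% against 8.89%). There were 20 above 0 and 18 below (52.6% above 0 against 42.5% of all features), with a median of 0.06. Hipk2, a nuclear kinase that works with corepressors, had 1.49, -0.42, -0.11 and 0.63 on sham control arrays and 2.19, 1.82 and 1.85 on 3 infarcted arrays. The groups did not overlap, and the difference was 1.55 ± 0.44 (SE, adjusted p = 0.183). Endoglin, Eng, a TGF-beta co-receptor of endothelium, had 2.50, 2.24, 2.35 and 2.29 on sham control arrays and 1.97, 1.77, 1.72 and 1.19 on infarcted arrays. The groups did not overlap here either, with a difference of -0.68 ± 0.23 (adjusted p = 0.251), and of the 8 endothelial markers, of which Eng is itself 1, 3 had a difference above 0 and the median was -0.19.

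The next 8 partners by p were the antagonist Nbl1 (0.59), the kinase adaptor Tab2 (0.55), the proprotein convertase Furin (-0.50), the kinase Map3k7 (0.34), the phosphatase Ppm1a (0.74), the TGF-beta target Ccn2 (0.54), the ubiquitin ligase Smurf2 (0.38) and Thbs1 (0.41), which can activate latent TGF-beta. Their adjusted p-values in the main setting ran from 0.435 to 0.623. After quantile normalization the 8 differences, in the same order, were 0.65, 0.64, -0.33, 0.33, 1.02, 0.88, 0.44 and 0.43. Bgn and Dcn, also on the list, went from 0.14 and 0.16 in the main setting to 0.82 and 0.99 after quantile normalization. Neither passed there (limma adjusted p = 0.246 and 0.285). Outside the naming rule, and chosen after their values were seen, the BMP target genes Id1, Id2, Id3 and Id4 had differences of -0.27, -0.18, -0.20 and -0.16, and of -0.08, -0.12, -0.07 and -0.17 after quantile normalization. The 4 of them had adjusted p-values from 0.713 to 0.892.

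Marker genes of cells that make or answer these ligands were read on the same arrays. Of 12 macrophage markers 11 had a difference, infarcted minus sham control, above 0, where 42.5% of all tested features did, and none passed. Their mean signal ran from 0.21 to 0.70 on sham control arrays and from 1.02 to 1.55 on infarcted arrays, without overlap. Of 12 fibroblast markers 5 had a difference above 0, none passed, and the mean signal of 11 of them ran from 1.94 to 2.36 and from 1.81 to 2.29. Single fibroblast markers went opposite ways, from -1.27 for Col1a1 to 1.76 for Postn. Their median was -0.04 in the main setting and 0.08 after quantile normalization. The difference was above 0 for 3 of 7 smooth muscle and pericyte markers and for 3 of 3 lymphocyte markers, with medians of -0.25 and 0.02, and none passed. The part of these cells in any difference of the family was not tested.

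Values were missing for 21 of the 56 family genes in a way that kept them out of the test, which needs 3 values in each group. Of these, 12 had some values and 9 had none on any array: Bmp15, Bmp3, Bmpr1b, Gdf3, Gdf5, Gdf7, Grem1, Inhbe and Smad9. Among the partly measured genes, Bmp2 had -2.82 and -2.33 on 2 sham control arrays and -2.61 and -2.94 on 2 infarcted arrays. Gdf2 had 3 sham values from -2.08 to -1.51 and 2 infarcted values, -2.89 and -2.11. Inhbc had 3 sham values from -2.51 to -1.88 and 1 infarcted value of -2.52, and Gdf9 had 1 value in each group, -1.71 and -2.98. The number of family genes with a value ran from 36 to 44 on both the sham control and the infarcted arrays. A missing value does not show a low level, since bright genes lacked values too: Atp2a2, the calcium pump of heart muscle, had none on sham control arrays and 6.64 to 6.68 on infarcted arrays.

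**Figure D5:**
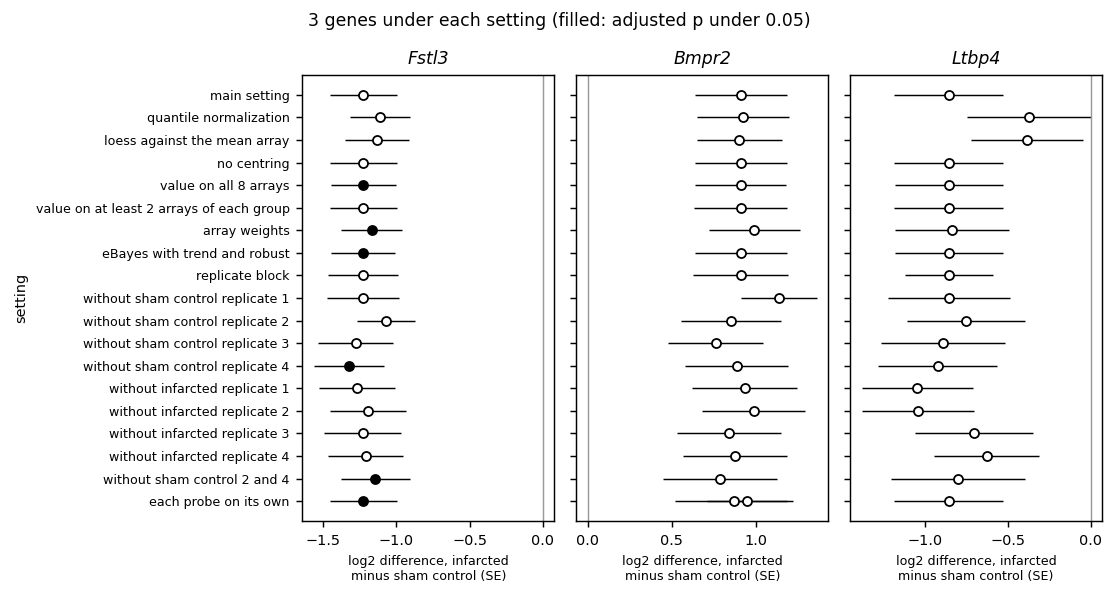
Difference in log2 signal, infarcted minus sham control, of Fstl3, Bmpr2 and Ltbp4 with its SE under the main and 18 alternative settings (rows); filled points have an adjusted p under 0.05, and horizontal axes differ. Fstl3 is filled in 6 of them, Bmpr2 and Ltbp4 in none.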

How the data were processed

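The authors deposited log2 values for 33600 spots on 8 arrays, 1 per heart, and how they made them is not stated in the sources available for this work. Within each of 48 blocks, 2 to the power of a value became a whole number, within 0.02, when multiplied by 1 constant per block and array, and the recovered signals ran from 42 to 65466. The values were therefore read as 1 channel's signal over its block median. Of the probes 18179 had 1 gene symbol in the platform annotation, 87 several, and 15334 were unnamed here. All 73 family probes were found in RefSeq's gene table by Entrez identifier.

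Arrays were centred on their median, which was already 0, and probes of a gene were averaged per array. The test, for features with at least 3 values per group, was limma 3.58.1 (lmFit, eBayes; R 4.3.3), with Benjamini-Hochberg adjustment over all 18044 and a threshold of 0.05. The fit was tested on simulated data. The spread that p-values measure is that among the 8 hearts, array noise included. Correlations across features between arrays of a group ran from 0.849 to 0.952, so no array was a copy. Same-numbered sham control and infarcted arrays had deviations correlated at 0.02, 0.31, -0.08 and -0.19. Those of differently numbered arrays ran from -0.19 to 0.31. No pairing by number was seen, but 4 pairs are too few to exclude one.

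The family and all lists were chosen with earlier results of these data known, and the liver, lung, stomach and brain genes after their values were seen. Array values are given for 26 tested genes: those with the largest differences or smallest p, and those fixed by name. Smad7 and Gdf15 were fixed by name too, but no probe carried either symbol alone. The tissue check also used 5 stomach genes and 5 brain genes with values on all 8 arrays, whose mean signals were 2.56 and -0.08 on sham control arrays and 1.92 and -0.06 on infarcted arrays. The number of arrays limits the precision.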

Additional observations from a re-analysis of the deposited data

Results flagged for a closer look

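In 2 of 47 groups of 4 arrays 1 value lay apart from the other 3 by more than Dixon's 95% limit for the gap as a share of the group's range, and chance alone flags about 1 in 20 such groups. Acvr2a was -2.02 on sham control replicate 2, where the other sham control arrays ran from -1.03 to -0.86. Fstl1 was 1.88 on sham control replicate 4, where the others ran from 3.01 to 3.22.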

How the results depend on the processing

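The alternatives were run gene by gene for 26 of the 35 tested family genes. Of their 456 values 43, from 12 genes, had the other sign than in the main setting, none with an unadjusted p under 0.05 in either fit. The count of family genes past the threshold was 0 in the main setting and 1, Fstl3, with a value required on all 8 arrays, with array weights, with a trended and robust variance prior and with each probe on its own. Leaving out 1 array gave 0 to 1, and leaving out sham control replicates 2 and 4, chosen after seeing the data, gave 1. Partners stayed at 0 in all 18. The count over all features was 99, and it was 32 after quantile normalization, 327 with array weights, 157 with each probe on its own, 1120 without sham control replicates 2 and 4, and 3 to 615 when 1 array was left out, with 615 without sham control replicate 4. With the replicate number as a block, a pairing that the arrays neither showed nor excluded, it was 1, and the family count 0. The causes were not tested. Quantile normalization and loess moved the median of all features by 0.08, from -0.08 to 0.00 and 0.01, and the family's was -0.04 in all 3.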
